A study of Mus musculus with 6 samples.

Results

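The genes examined here encode the machinery that holds RNA polymerase II (Pol II) near promoters and releases it into elongation. They were taken by name from the platform annotation. The list covers subunits of NELF, DSIF, P-TEFb, the super elongation complex, the PAF complex, Integrator, TFIIS and Pol II. Some subunits are left out, such as Ints4, Tcea2 and Wdr61, which are in a further list below. Cdk7, Cdk12, Cdk13, Ccnk, Hexim1, Larp7, Supt6, Supt16, Ssrp1 and Pcf11 are listed beside these complexes. The list has 51 genes, beside 16593 that the annotation names by a probe with 1 symbol. Of the 51, 44 had at least 1 probe, 66 probes in all, and 35 genes with 47 probes passed the detection filter, among 7579 genes and 10407 probes that did so in the whole data set. A probe passed when its detection p was below 0.05 on at least 3 of the 6 arrays. No probe was listed for Supt16, Ssrp1, Ccnt2, Rtf1, Polr2a, Polr2b and Polr2l. Cdk7, Ccnk, Larp7, Ell2, Ints2, Ints6, Tcea1, Polr2c and Polr2m had probes of which none passed.

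Hearts of 6 female C57BL/6J mice were profiled on Illumina bead arrays, 1 per mouse. The 3 control mice were Nelf-b f/f, with floxed alleles of Nelfb, and the 3 knockout mice were Nelf-b f/f; CreER, with a tamoxifen-activated Cre recombinase added to the same alleles. All 6 received tamoxifen at 8 weeks, were kept on regular chow, were fasted for 5 hours and gave heart tissue at 20 weeks of age. The controls had no CreER, so an effect of the recombinase cannot be told apart from that of the deletion, and neither the promoter driving CreER nor which exons are removed is stated in the labels. Groups follow the sample records. In the deposited non-normalized table the headers carry the 2 group names the other way round, and every sign given here would turn under those headers.

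As background, NELF and DSIF bind Pol II soon after initiation and hold it in a paused state. P-TEFb, the kinase Cdk9 with a cyclin T, phosphorylates both factors and Pol II itself, upon which NELF leaves and DSIF stays on as an elongation factor. Hexim1 and Larp7 keep P-TEFb inactive in a small nuclear RNA particle, the super elongation complex brings active P-TEFb to genes, the PAF complex travels with Pol II, and Integrator cleaves nascent transcripts at paused polymerase.

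The share of probes detected ran from 38.8% to 43.8% over the arrays. On the second principal component control array 1 lay at 18.7 and the other 5 arrays between -8.55 and 1.64. Heart muscle markers were present, with 7 of 9 tested and 0 of these called at an adjusted p below 0.05 (limma). The 7 had a summed linear signal of 89226 to 89830 in controls and 90341 to 92675 in knockouts, without overlap. Their median log2 difference was -0.05. Tnnt2 and Ryr2 did not pass the filter. None of 5 T and B cell markers passed the filter. Mural cell markers had a summed linear signal of 2865 to 3641 in controls and 1681 to 2319 in knockouts, and the median log2 difference of the 5 tested was 0.01. Of these 5, Acta2, the smooth muscle actin, was called lower at -0.84, and the other 4 were not called. Endothelial markers summed to 1583 to 1747 in controls and 1761 to 1916 in knockouts, with 0 of 6 called. Fibroblast markers summed to 3993 to 4683 and 4381 to 4627. Macrophage markers summed to 221.2 to 278.9 and 201.5 to 261.1. The 2 erythroid markers tested summed to 41.7 to 151.5 and 68.7 to 241.8, with a median log2 difference of 0.64 and 0 called. The median log2 difference was -0.22 for macrophage, 0.14 for endothelial and 0.02 for fibroblast markers. Adiponectin (Adipoq), the 1 adipocyte marker tested, was at 22.5 to 28.1 and 19.9 to 34.8. The part of these values in the results below was not tested. In whole tissue, fewer cells of a type and less RNA per cell cannot be told apart.

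Nelfb, the gene that carries the floxed alleles and encodes the B subunit of NELF, was the 1 member called. Its promoter window from RefSeq (GRCm38.p6), 250 bases before to 50 bases after the gene start, is shown because this is the locus under test. Beside it is the window of Nelfa, the other NELF gene with an entry in that table. Capitals mark TATAAA and GGGCGG on either strand, so that CCGCCC is also GGGCGG. The 2 motifs did not overlap in either window. The Nelfb window is chr2:25211440-25211739 on the minus strand and the Nelfa window is chr5:33936222-33936521 on the minus strand.
Nelfb: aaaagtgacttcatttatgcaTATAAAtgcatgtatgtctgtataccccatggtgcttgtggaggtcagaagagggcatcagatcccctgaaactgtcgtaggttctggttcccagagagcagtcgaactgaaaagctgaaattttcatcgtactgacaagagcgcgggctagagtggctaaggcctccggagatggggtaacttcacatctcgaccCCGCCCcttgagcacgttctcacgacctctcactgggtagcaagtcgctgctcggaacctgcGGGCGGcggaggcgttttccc
Nelfa: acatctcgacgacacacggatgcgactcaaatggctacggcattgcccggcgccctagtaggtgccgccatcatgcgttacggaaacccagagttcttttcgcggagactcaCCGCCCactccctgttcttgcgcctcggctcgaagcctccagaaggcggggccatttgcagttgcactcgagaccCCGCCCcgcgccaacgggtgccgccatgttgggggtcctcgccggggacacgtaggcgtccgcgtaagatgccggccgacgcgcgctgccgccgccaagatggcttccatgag

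The Nelfb window held TATAAA 1 time and GGGCGG 2 times, and was 53.0% G and C. The Nelfa window held no TATAAA and GGGCGG 2 times, and was 65.3% G and C. Over 48 windows of 43 members, GGGCGG was present in 40 (83.3%), against 35.7% of all 32851 windows in the table. TATAAA was present in 3 of the 48 (6.25%) and in 13.6% of all windows. The median ratio of observed to expected CpG was 0.918 in the members' windows and 0.384 in all windows. These composition values describe the genes and bear on no difference between the groups. The arrays measure the transcripts, not binding at these windows.

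Nelfb signal was lower in every knockout heart on both of its probes. The probe with the higher signal, which stands for the gene, had log2 normalized intensities of 7.01, 7.08 and 7.07 in controls 1 to 3, and 5.41, 5.46 and 5.46 in knockouts 1 to 3. The other probe had 6.64, 6.38 and 6.49 in controls and 5.50, 5.58 and 5.62 in knockouts. On both probes the lowest control lay above the highest knockout. The brighter probe fell by 1.61 ± 0.13 SE on the log2 scale, 3.06-fold, with a 95% interval of the log2 difference from -1.89 to -1.34 (limma, adjusted p = 0.000183). In a fit over all detected probes the other probe also fell, with a log2 difference of -0.94, an interval from -1.24 to -0.63 and a limma adjusted p of 0.00406.

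Some Nelfb signal remained in the knockout hearts. Both probes were detected on all 6 arrays, and the highest detection p on a knockout array was 0.00251. Their knockout means of 5.44 and 5.57 lay above the lowest signal of any detected probe, which was 4.54 to 4.68 on the log2 scale over the arrays. The log2 gap between the 2 probes, brighter minus other, was 0.37, 0.70 and 0.58 in controls and -0.09, -0.12 and -0.16 in knockouts. The gap was smaller in every knockout than in any control, and the exact 2-sided permutation p was 0.1, the smallest that 3 against 3 arrays can give. The positions of the 2 probes against the floxed exons were not analysed here.

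The fold of Nelfb depends on the background treatment. In the authors' value table, on a linear scale, the brighter probe had 271.6, 280.7 and 279.6 in controls and 137.0, 139.6 and 140.0 in knockouts. The ratio of those group means was 1.997, and for the other probe it was 1.48. The log2 difference of the gene was -0.998 in that table and -0.82 with no background correction. It was called in every one of the 15 other settings tried.

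Genes beside Nelfb on chromosome 2 were not called. Of the 5 protein-coding genes on either side in the RefSeq order, 4 were tested. Tor4a, the nearest on one side, had a log2 difference of -0.25 ± 0.17 SE (limma, adjusted p = 0.436). Nrarp, on the same side, had 0.19 ± 0.15 SE and Nsmf 0.06 ± 0.16 SE. Tubb4b, a beta-tubulin gene on the other side, had -0.03 ± 0.16 SE. The same limma fit gave adjusted p-values of 0.497, 0.881 and 0.931 for these 3.

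**Figure D1:**
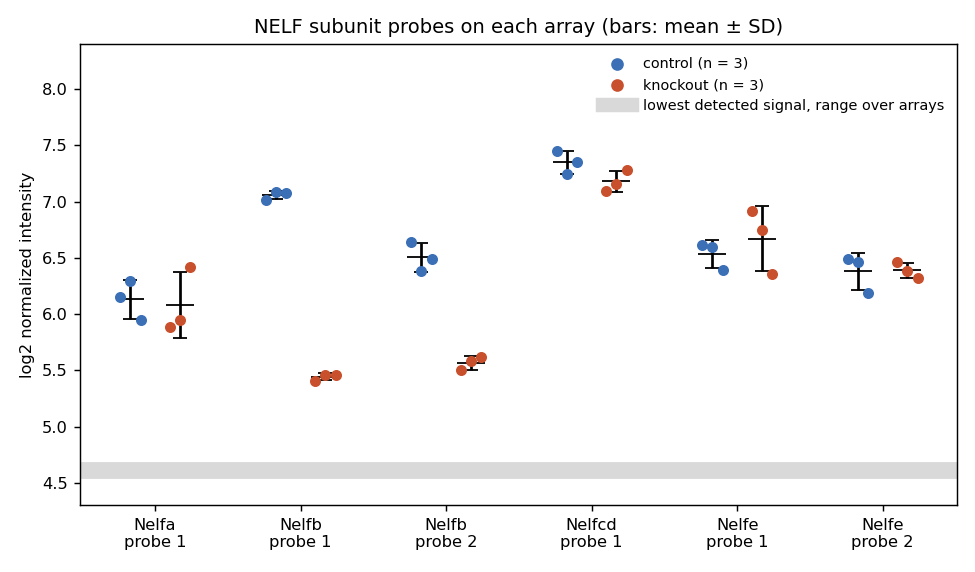
Log2 normalized intensity of each NELF subunit probe on each array, with controls in blue and knockouts in red, group means and SD as bars, and the range over arrays of the lowest detected signal in grey. Both Nelfb probes are lower in all 3 knockouts, at 5.41 to 5.62, than in any control, at 6.38 to 7.08, and the groups overlap for the 4 probes of Nelfa, Nelfcd and Nelfe.

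The genes of the other NELF subunits showed overlapping groups. Nelfa, which encodes the A subunit, had 6.15, 6.30 and 5.95 in controls and 5.88, 5.95 and 6.42 in knockouts. Knockout 3 was the highest and knockout 1 the lowest of the 6 arrays. The 95% interval of the log2 difference ran from -0.43 to 0.33. Nelfcd, which encodes the C and D forms of a subunit, had 7.45, 7.25 and 7.35 in controls and 7.10, 7.16 and 7.28 in knockouts. Its interval ran from -0.46 to 0.13. Nelfe, which encodes the RNA-binding subunit, had 6.61, 6.60 and 6.39 in controls and 6.91, 6.75 and 6.35 in knockouts on its brighter probe. Knockout 3 was the lowest of the 6 arrays and knockout 1 the highest. The other Nelfe probe had a log2 difference of 0.01, with an interval from -0.30 to 0.33. The limma adjusted p-values of Nelfa, Nelfcd and Nelfe were 0.902, 0.527 and 0.699. All 3 intervals lay within 1.5-fold in either direction. They bound the difference in array signal under the background treatment of this fit, not the change of the transcripts.

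Across all members, 1 of the 35 tested was called, 2.86%, against 4.25% of all genes tested. By direction, 1 was called lower and 0 higher, against 2.01% and 2.24% of all genes. At an unadjusted limma p below 0.05 there were 4 members (11.4%), against 20.4% of all genes. The groups did not overlap for 8 members, 4 of them higher and 4 lower in knockouts. That is 22.9%, against 24.9% of all genes tested. All these counts include Nelfb, whose alleles were floxed by design. Without it 0 of 34 members were called and 3 had an unadjusted limma p below 0.05. Of the 34, 4 were higher and 3 lower in knockouts without overlap. The median log2 difference was -0.0035 over the 35 members and 0.0064 over all genes, and the median size of the difference regardless of sign was 0.14 and 0.18. In the fit over probes 2 of 47 member probes were called, both of Nelfb, against 3.8% of all probes.

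**Figure D2:**
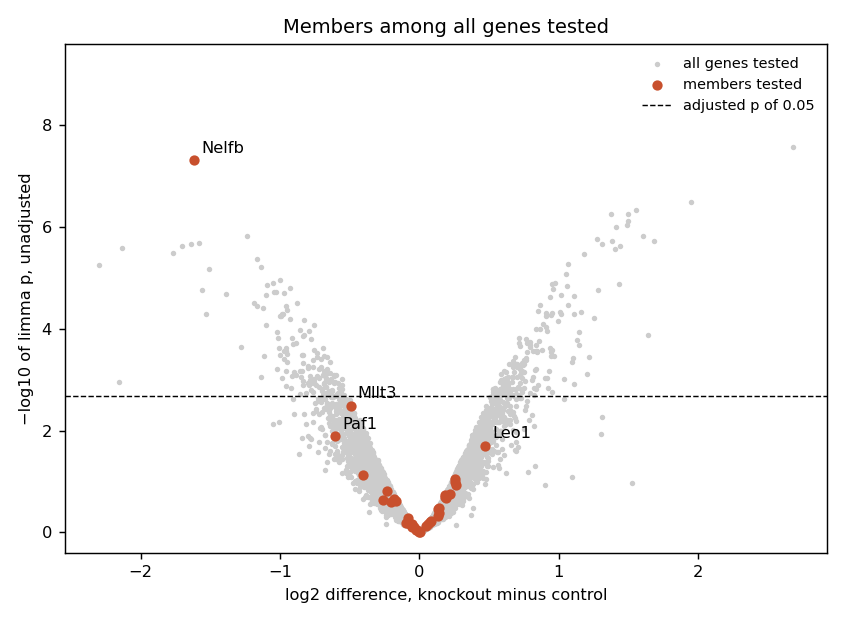
Each point is 1 gene, with the log2 difference (knockout minus control) on the horizontal axis and -log10 of the unadjusted limma p on the vertical axis, all 7579 genes in grey and the 35 tested members in red. Nelfb, at a log2 difference of -1.61, is the only member above the dashed line of an adjusted p of 0.05, and Mllt3 at -0.49 is the next.

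The 95% intervals limit how large a difference in array signal the uncalled members may have had under the background treatment of this fit. For 33 of the 35 the interval lay within 2-fold in either direction, the exceptions being Nelfb and Paf1, and for 28 it lay within 1.5-fold. The interval included 0 for 31 members, all but Nelfb, Mllt3, Paf1 and Leo1. Low signal limits these counts for Mllt3, Ctr9, Cdc73, Cdk12, Pcf11, Mllt1, Polr2k and Aff4, whose probes were not detected on all 6 arrays. Over all genes tested, 7169 had an interval within 2-fold and 4603 within 1.5-fold. The median SE of the members was 0.15 on the log2 scale and that of all genes 0.16.

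**Figure D3:**
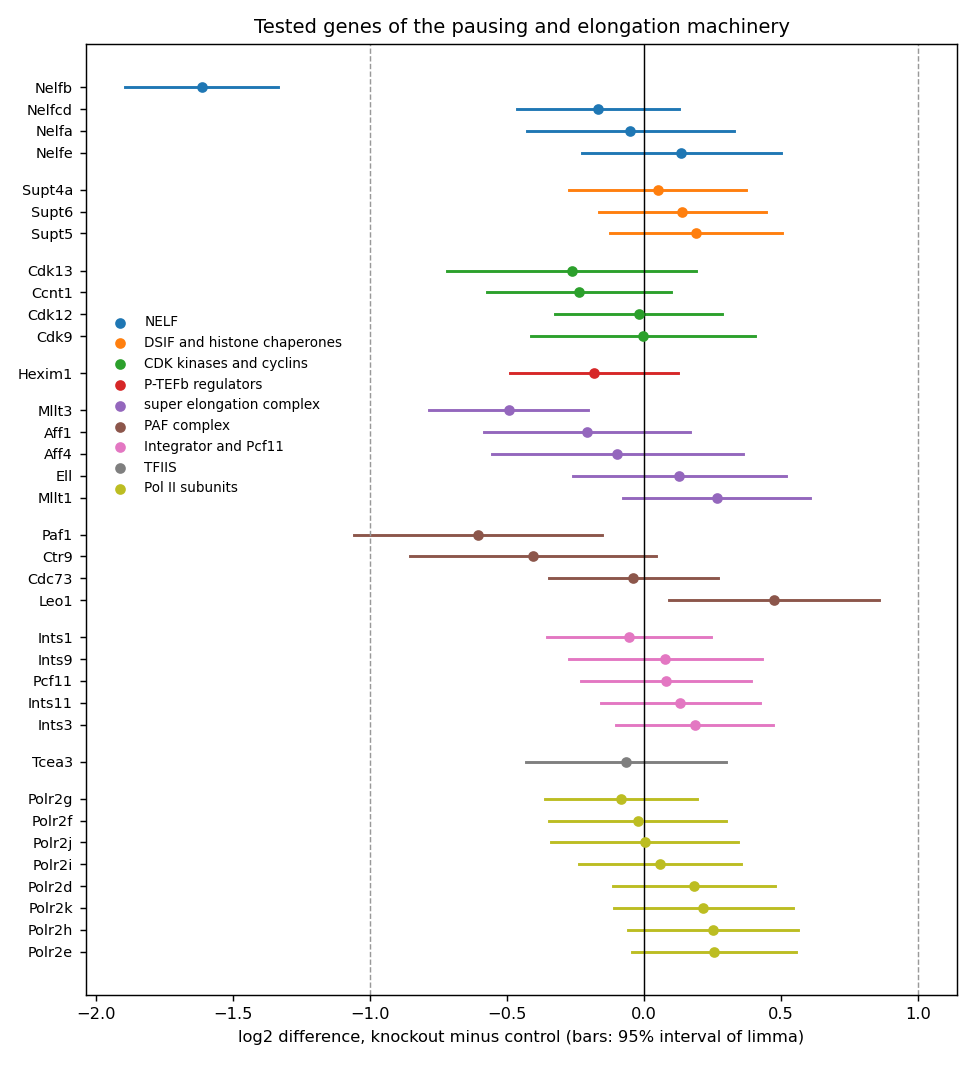
Log2 difference (knockout minus control) of each tested member as a point with its 95% limma interval as a bar, coloured by complex, with dashed lines at 2-fold. The Nelfb interval, -1.89 to -1.34, lies apart from those of the other 34 members, whose points run from -0.61 to 0.47.

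DSIF and the histone chaperone of elongating Pol II gave small positive differences with overlapping groups. Of 5 genes listed 3 were tested, 0 were called and 0 had an unadjusted p below 0.05. Supt5, the large DSIF subunit that contacts NELF and Pol II, had 8.07, 7.83 and 7.86 in controls and 8.00, 8.28 and 8.06 in knockouts on its brighter probe. Its log2 difference was 0.19 with an interval from -0.12 to 0.50 (limma, adjusted p = 0.498). The other Supt5 probe had a difference of the opposite sign, -0.07, with an interval from -0.38 to 0.24. Supt4a, the small DSIF subunit, had a log2 difference of 0.05 ± 0.15 SE. Supt6, a histone chaperone that binds phosphorylated Pol II, had 0.14 ± 0.14 SE.

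The listed kinases and cyclins, of P-TEFb and others, all had negative or near-zero differences, and none was called. Of 7 genes listed 4 were tested and 0 had an unadjusted p below 0.05. Ccnt1, a cyclin partner of Cdk9 in P-TEFb, had the smallest p, with 6.17, 6.22 and 5.95 in controls and 5.97, 6.02 and 5.64 in knockouts. The groups overlapped through control 3. Its log2 difference was -0.24 with an interval from -0.57 to 0.10 (limma, adjusted p = 0.421). Cdk9, the P-TEFb kinase, had 5.59, 5.07 and 5.68 in controls and 5.59, 5.56 and 5.18 in knockouts, a log2 difference of -0.0035. Its interval ran from -0.41 to 0.41. Cdk12 and Cdk13 are kinases of the Pol II C-terminal domain during elongation. Their log2 differences were -0.02 ± 0.14 SE and -0.26 ± 0.21 SE, and Cdk13 was lowest, at 5.63, in knockout 2.

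Hexim1, the protein inhibitor of P-TEFb, had 6.55, 6.22 and 6.32 in controls and 6.25, 6.13 and 6.17 in knockouts. Control 2 lay inside the knockout range. The log2 difference was -0.18 with an interval from -0.49 to 0.12 (limma, adjusted p = 0.503). Larp7, which binds the small nuclear RNA of the inactive particle, was not detected on any array.

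In the super elongation complex Mllt3 came nearest to a call after Nelfb. Mllt3 encodes a reader of acylated histones that joins the complex. Its brighter probe had 5.11, 5.12 and 5.01 in controls and 4.65, 4.65 and 4.46 in knockouts, so that the groups did not overlap. The log2 difference was -0.49 ± 0.13 SE, with an interval from -0.79 to -0.20 and a limma adjusted p of 0.0632. A second probe had 4.64, 4.88 and 5.05 in controls and 4.45, 4.28 and 4.37 in knockouts, a difference of -0.49 with an adjusted p of 0.102 in the probe fit.

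These Mllt3 signals were close to the detection limit. The brighter probe was detected on 3 control arrays and 1 knockout array, so the controls carried it past the filter. Its lower signal in knockouts and its rank after Nelfb are therefore no support for a fall of the gene. The second was detected on 3 control arrays and on 0 knockout arrays, so it passed the filter through the controls alone. Against the lowest detected signal it was at least 1.15-fold lower in knockouts, a bound and not a fold. The other 2 Mllt3 probes were not detected on any array. The difference of the gene was -0.15 with no background correction and -0.22 with an offset of 50, and it had no call in any of the 15 settings in which the gene could be tested.

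The remaining 4 tested genes of the super elongation complex were not called, and of the 5 tested Mllt3 alone had an unadjusted p below 0.05. Mllt1, the paralog of Mllt3, had a log2 difference of 0.27 ± 0.16 SE and was detected on 1 control array and 3 knockout arrays. The scaffold genes Aff1 and Aff4 had -0.21 ± 0.17 SE and -0.10 ± 0.21 SE. Ell, an elongation factor that raises the rate of Pol II, had 0.13 ± 0.18 SE. Ell2 was not detected on any array.

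The PAF complex held the widest spread of differences among the complexes apart from NELF. Of 5 genes listed 4 were tested, 0 were called and 2 had an unadjusted p below 0.05, in opposite directions. Paf1, a scaffold subunit, had 6.49, 6.36 and 7.005 in controls and 5.63, 6.19 and 6.21 in knockouts on its brighter probe, with control 3 highest and knockout 1 lowest. The groups did not overlap. The log2 difference was -0.61 ± 0.21 SE, with an interval from -1.06 to -0.15 and a limma adjusted p of 0.127. The other Paf1 probe had 5.41, 5.75 and 5.54 in controls and 5.40, 5.26 and 5.66 in knockouts. Its groups overlapped, and its difference was -0.13 with an adjusted p of 0.715 in the probe fit. Without control replicate 3 the difference of the gene was -0.42, and without knockout replicate 1 it was -0.41.

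Leo1, a PAF subunit that binds RNA and histones, had values in the other direction. It had 5.68, 5.54 and 5.35 in controls and 5.94, 5.72 and 6.33 in knockouts, with no overlap and with knockout 3 highest. The log2 difference was 0.47 ± 0.17 SE, with an interval from 0.09 to 0.86 and a limma adjusted p of 0.155. Without knockout replicate 3 it was 0.31. Ctr9, a subunit rich in repeats that hold the complex together, had 4.93, 5.31 and 4.75 in controls and 4.57, 4.98 and 4.22 in knockouts. The difference was -0.41 ± 0.21 SE (limma, adjusted p = 0.291), and it was detected on 3 control arrays and 1 knockout array. Cdc73, known as the tumour suppressor parafibromin, had -0.04 ± 0.14 SE.

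**Figure D4:**
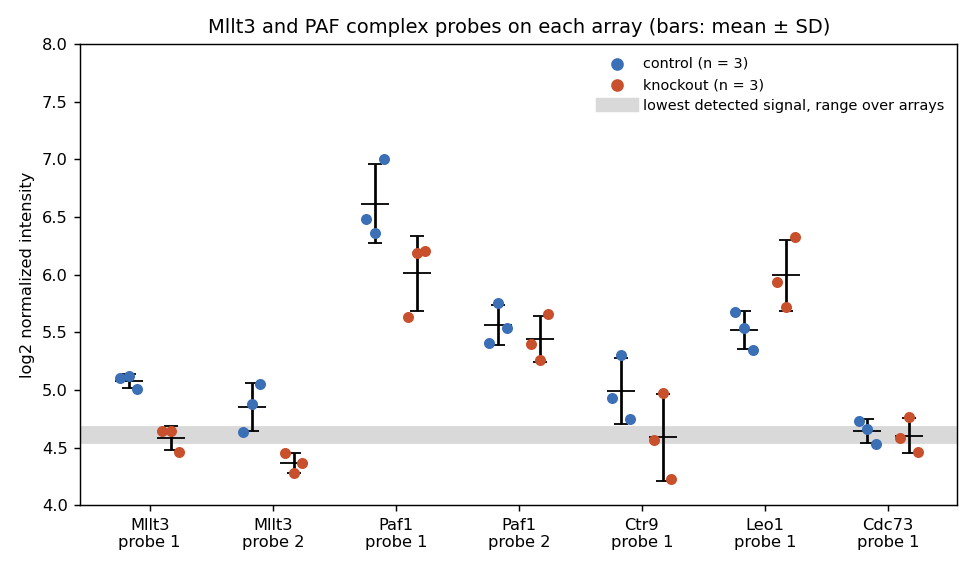
Log2 normalized intensity of each tested Mllt3 and PAF complex probe on each array, with controls in blue, knockouts in red, means and SD as bars, and the range of the lowest detected signal in grey. Both Mllt3 probes lie in or below the grey band in knockouts, at 4.28 to 4.65, and the 2 Paf1 probes differ, with no overlap on the brighter one and overlap on the other.

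Of the 7 genes listed under Integrator and the termination factor Pcf11, 5 were tested, 0 were called, 0 had an unadjusted p below 0.05, and all 5 intervals lay within 1.5-fold. Ints3, a subunit also known from a single-stranded DNA binding complex, had 7.55, 7.46 and 7.59 in controls and 7.796, 7.72 and 7.65 in knockouts. The groups did not overlap, and the difference was 0.19 ± 0.13 SE (limma, adjusted p = 0.465). The other 2 Ints3 probes gave -0.18 and 0.28, so the probes differed in sign. Ints11, the endonuclease, had a log2 difference of 0.13 ± 0.13 SE. Its partner Ints9 had 0.08 ± 0.16 SE, Ints1 had -0.06 ± 0.14 SE and Pcf11 had 0.08 ± 0.14 SE. Other Integrator subunits are in a further list given below, where Ints4 had 0.82 and was called. Ints7 and Ints5 had -0.47 and -0.34 and were not called, with unadjusted limma p of 0.0138 and 0.0378. Ints12, Ints13 and Ints14 had 0.24, -0.31 and 0.11 and were not called. Tcea3, which encodes a form of TFIIS that restarts stalled Pol II, had 8.62, 8.95 and 9.19 in controls and 8.96, 8.91 and 8.70 in knockouts. The range of the knockouts lay inside that of the controls, and the difference was -0.07 with an interval from -0.43 to 0.30 (limma, adjusted p = 0.860). Tcea2, another TFIIS gene, is in the further list. It had -0.41 with no overlap and was not called (limma, unadjusted p = 0.0191, adjusted p = 0.153).

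Pol II subunit genes had small differences, 6 positive and 2 negative, and none was called. Of 13 genes listed 8 were tested, 0 had an unadjusted p below 0.05, and every interval lay within 1.5-fold. The median log2 difference was 0.12, with a range from -0.08 to 0.25. Polr2e, a subunit shared with Pol I and Pol III, had the smallest p, with 8.82, 8.98 and 8.99 in controls and 9.11, 9.12 and 9.33 in knockouts. Its groups did not overlap on this probe, and the log2 difference was 0.25 with an interval from -0.04 to 0.55 (limma, adjusted p = 0.320). The second Polr2e probe had 0.11 with overlapping groups. Polr2h, another shared subunit, had no overlap and a difference of 0.25 ± 0.14 SE.

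Polr2d, which encodes a subunit of the stalk that projects from Pol II, was measured by 4 probes. All 4 were higher on average in knockouts, with log2 differences from 0.18 to 0.42, and for 2 of them the groups did not overlap. Their adjusted p-values in the limma probe fit ran from 0.292 to 0.514. Polr2g, the partner of Polr2d in the stalk, had 8.77, 8.80 and 8.78 in controls and 8.66, 8.73 and 8.71 in knockouts. These groups did not overlap, yet the difference was -0.08 ± 0.13 SE, with limma's moderated SE. Polr2f, Polr2i, Polr2j and Polr2k had differences of -0.02, 0.06, 0.0022 and 0.22. The 4 had overlapping groups, and Polr2k was detected on 1 control array and 3 knockout arrays.

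Of 9 members with several tested probes, 7 had probes of 1 sign throughout, namely Nelfb, Nelfe, Mllt3, Paf1, Ints9, Polr2d and Polr2e. Supt5 and Ints3 had probes of both signs. For Mllt3 the shared sign is no independent support, since the control arrays carried both probes past the filter. For Nelfb the log2 differences of the probes lay 0.68 apart.

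A further list of 54 names of transcription genes outside these 51 was also examined, with 33 genes tested. It mixes pausing and elongation genes with initiation, Mediator, cap-binding and termination genes. Of these 33, 1 rose, 1 fell and 31 were not called, so that 6.06% were called, against 4.25% of all genes tested. At an unadjusted limma p below 0.05 there were 11 (33.3%), against 20.4% of all genes, and the groups did not overlap for 14 (42.4%), against 24.9%. The 11 include Gtf2h1, Gtf2e2, Ncbp1 and Ssu72, so these shares do not describe pausing and elongation genes alone. The list was also drawn up with earlier results of these data known, so the shares cannot be read as an excess over all genes. The median log2 difference was 0.10. Eloa, the large subunit of elongin, an elongation factor, had 7.10, 7.61 and 7.30 in controls and 6.42, 6.77 and 6.43 in knockouts, with every knockout below every control. It fell by 0.80 ± 0.17 SE on the log2 scale (limma, adjusted p = 0.0263). Ints4, a scaffold of the Integrator cleavage module, had 9.39, 8.999 and 8.81 in controls and 9.73, 10.27 and 9.67 in knockouts, with every knockout above every control. It rose by 0.82 ± 0.20 SE (limma, adjusted p = 0.0427).

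Both calls were lost when certain single arrays were left out. For Eloa the limma adjusted p became 0.0784 and 0.0889 on leaving out control 2 or control 3, and 0.0722 and 0.0856 on leaving out knockout 1 or knockout 3. For Ints4 it became 0.0991 and 0.160 on leaving out control 2 or control 3, and 0.0645, 0.137 and 0.0625 on leaving out knockout 1, 2 or 3. With median scaling in place of quantile normalization it was 0.383 for Eloa and 0.327 for Ints4, and with no detection filter 0.0781 and 0.130. The p-values with median scaling do not rest on the spread of each gene, as described below. Over all 15 other settings the adjusted p ran from 0.00285 to 0.383 for Eloa and from 0.00653 to 0.327 for Ints4, and neither difference changed sign.

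The Nelfb difference was compared across settings with those of the 3 members next in order of p. Nelfb was called in the reported fit and in all 15 others, with log2 differences from -1.64 to -0.82 and limma adjusted p-values from 5.57e-07 to 0.00301. Paf1 ran from -0.73 to -0.31 with adjusted p from 0.0590 to 0.849. Leo1 ran from 0.20 to 0.61 with adjusted p from 0.120 to 0.9999. Mllt3 ran from -0.56 to -0.15 with adjusted p from 0.0601 to 0.9999. None of these 3 was called in any setting, and each kept its sign. The highest adjusted p of each came with median scaling, where limma gave Nelfb, Paf1 and Mllt3 the same SE of 0.309. The p-values of that setting therefore do not rest on the spread of each gene.

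**Figure D5:**
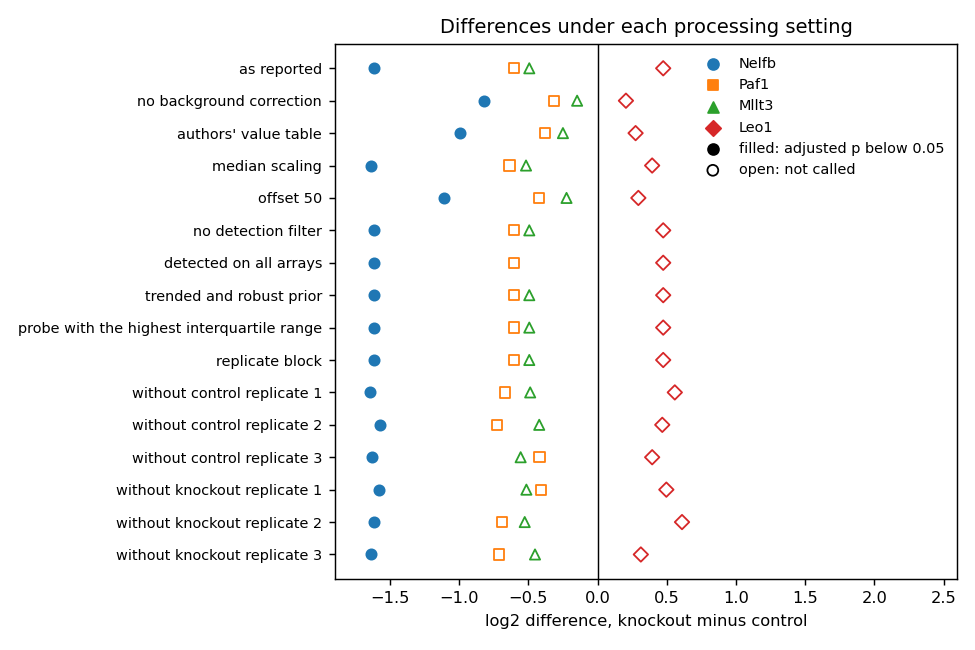
Log2 difference (knockout minus control) of Nelfb, Paf1, Mllt3 and Leo1 on the horizontal axis under each processing setting, 1 per row, with filled symbols where the adjusted p was below 0.05. Nelfb is filled in all rows, from -1.64 to -0.82, and the symbols of the other 3 genes are open in every row; Mllt3 has no symbol where detection on all arrays was required.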

How the data were processed

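RNA from 6 hearts, 3 control and 3 knockout, was measured on 1 Illumina bead array each, and groups were taken from the sample records. The authors deposited a table of intensity values, not normalized, with a detection p-value per probe and array, per the file headers, and a second table of intensity values on a linear scale whose 6 columns share 1 distribution. GenomeStudio is named without a version in the submitters' processing notes, and no source used here gives the scaling of the second table. Ranks of each column in the first table matched those of a single column in the second (Spearman rho 1.00, highest other 0.854); replicate numbers agreed and group names were exchanged. Arrays were assigned to sample records by this match, a choice made after the tables were seen.

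Background correction and quantile normalization used neqc (limma 3.58.1, R 4.3.3) with an offset of 16. Of 25696 probes, 23977 had 1 gene symbol. The brightest detected probe stood for its gene. Genes, and separately all detected probes, entered limma's lmFit and eBayes with 2-sided tests. Adjustment was by Benjamini-Hochberg over the whole table, with a call at an adjusted p below 0.05. The fit was also run on data simulated with independent noise from its own variances, which cannot show how it behaves on these arrays. Errors are SDs over 3 arrays or limma's standard errors (SE). Nothing says how the mice relate to each other. The p-values set each group difference against the spread within groups and take the arrays as independent. Only 6 arrays limit the precision.

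The members, the lists and the tests were chosen with earlier results of these data known. Full values were given for NELF genes, called members and the member with the smallest p of each complex, and of the other list for called genes; the values of Leo1, Ctr9, Cdk9, Polr2g, and the genes beside Nelfb were chosen after they were seen. The alternatives covered background correction, the authors' table, median scaling, the offset (50), the detection filter, the variance prior, the probe chosen, a replicate block and each array left out. Figures used Python 3.11.15 and matplotlib 3.10.9.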

Additional observations from a re-analysis of the deposited data

How the results depend on the processing

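Nelfb kept its direction and its call in all 15 settings, and 1 member was called in each, always Nelfb. The median log2 difference of the members ran from -0.03 to 0.06. The number of member probes called was 2 in 13 of 14 settings and 1 with median scaling. The 322 calls over all genes became 54 with median scaling, 142 with no detection filter, 558 with an offset of 50, 579 in the authors' value table, 562 with no background correction, 645 with a trended and robust prior, 171 with the replicate block, and 94 to 380 with 1 array left out. Of the genes in the further list, 4 were called in the authors' value table and with the trended and robust prior. With median scaling and with no detection filter 0 were called (2 and 19 at an unadjusted limma p below 0.05). With the replicate block 1 was called (Eloa, limma adjusted p 0.0285, while Ints4 had 0.0655), and with 1 array left out 0 to 2. The cause of these moves was not tested. With median scaling limma gave Nelfb, Paf1 and Mllt3 the same SE of 0.309, so calls in that setting do not rest on the spread of each gene. The replicate numbers did not pair the arrays, since deviations of same-numbered arrays had correlations of -0.05, -0.00036 and -0.06. With the replicate block Nelfb stayed at -1.61, with an adjusted p of 0.00301. Mllt3 could not be fitted where detection on all 6 arrays was required. Low signal limits Mllt3, Ctr9, Cdc73, Cdk12, Pcf11, Mllt1, Polr2k and Aff4, whose probes were not detected on all 6 arrays.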
